A study of Homo sapiens with 6 samples.

Results

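The 42 genes described here encode proteins that carry cells through G2 and mitosis: cyclins and CDK1 with their partners, mitotic kinases, the spindle checkpoint, the anaphase-promoting pathway, kinetochores, spindle motors and other spindle and chromosome proteins. They were taken by name from a fixed list, and each name was found once among the 58735 genes of the deposited table. Their mRNA was measured by RNA sequencing of total RNA in 3 libraries of U937 cells with a short hairpin RNA labelled shENO1, read here as directed against ENO1, and in 3 libraries of U937 cells labelled wild type. U937 is an established human line of immature monocyte-like leukaemia cells, and ENO1 encodes the glycolytic enzyme alpha-enolase. The reference cells were labelled only as wild type, so carrying a hairpin construct and losing ENO1 cannot be told apart, and the number of hairpins or clones is not given in the sources used here. Whether the 3 libraries of each kind were grown as independent cultures is not stated in the labels. The p-values therefore speak only of the scatter among these libraries, part of which may be technical. The comparison addressed how mRNA levels differ between shENO1 and wild-type cells.

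As background, entry into mitosis is driven by CDK1 bound to B-type cyclins and activated by CDC25 phosphatases. The spindle checkpoint holds the anaphase-promoting complex (APC/C) inactive until all kinetochores are attached, after which CDC20 and the ubiquitin-conjugating enzymes UBE2C and UBE2S help it mark cyclin B and securin for destruction. Most of these genes are transcribed in a wave late in the cell cycle, through promoters with CCAAT boxes, bound by NF-Y, and a cell cycle genes homology region (CHR), bound by the MuvB complex together with B-MYB and FOXM1. In a population of cells, fewer cells in G2 and mitosis and less of these mRNAs per cell cannot be told apart.

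Levels are the deposited FPKM, in which a gene's fragments are divided by its length in kilobases and by the size of the library. The libraries held 14216739 to 17499636 reads in genes, recovered from the FPKM values and gene lengths. ENO1 mRNA was at 91.5, 82.7 and 111 FPKM in shENO1 libraries and at 526, 545 and 561 FPKM in wild-type libraries, so the groups stood far apart. Of 12 markers of myeloid identity, 10 reached 1 FPKM in some library, with summed levels of 1551 to 1983 FPKM in shENO1 and 1143 to 1288 FPKM in wild-type libraries; MPO and CD68 stayed under 1 FPKM. CSF1R (2.28 ± 0.455 and 0.941 ± 0.0813 FPKM) and FCGR1A (3.72 ± 0.494 and 2.11 ± 0.344 FPKM) rose in shENO1 against wild-type cells (limma adjusted p = 0.0245 and 0.0322). LYZ (634 ± 192 and 384 ± 66.7 FPKM) and ELANE (789 ± 101 and 498 ± 104 FPKM) made up most of the summed levels and did not pass (limma adjusted p = 0.107 and 0.0639). Of the 10 tested markers 7 had log2 fold changes above 0 and 3 below, PTPRC, CD33 and CD4 at -0.18, -0.15 and -0.11. Among markers of other cells, the T-cell genes CD3D and CD3E, the B-cell gene MS4A1, the globin genes and COL3A1 were listed at 0 in all libraries. The T and NK list stood at 206 to 317 FPKM in shENO1 and 258 to 297 FPKM in wild-type libraries, of which NKG7 made up 261 ± 55.6 and 274 ± 20.3 FPKM. Sums for B-cell markers were 7.61 to 11.3 FPKM in shENO1 and 9.68 to 11.5 FPKM in wild-type libraries. For erythroid and platelet markers they were 0.257 to 0.675 and 0.210 to 1.26 FPKM in the same order. For epithelial and stromal markers they were 20.3 to 22.2 and 15.4 to 18.7 FPKM. PECAM1 made up 20.3 ± 0.965 and 15.0 ± 1.57 FPKM of the epithelial and stromal sums. Of the 9 markers in that list 7 stayed under 1 FPKM in all libraries, among them EPCAM, CDH1, KRT8, KRT18 and KRT19. Of the tested markers in these lists PAX5 and PECAM1 rose. CD79A and COL1A1 were below wild type in all shENO1 libraries without passing (adjusted p = 0.0815 and 0.298). CD79A was at 4.003 ± 1.39 and 6.94 ± 1.18 FPKM and COL1A1 at 0.993 ± 0.306 and 1.40 ± 0.103 FPKM. Reads from mitochondrial genes made up 5.72 to 7.42% in shENO1 and 3.38 to 5.19% in wild-type libraries, and reads in antisense and sense-intronic loci 0.372 to 0.439% and 0.450 to 0.551%. Deviations from the average library trended with gene length at a Spearman rho of 0.06, 0.25 and -0.37 in shENO1 replicates 1 to 3 and of 0.01, -0.11 and 0.18 in wild-type replicates 1 to 3, across protein-coding genes. With the length trend removed 18 of the 42 genes were lower in shENO1 cells, and with libraries scaled on nuclear genes 12, against 12 as deposited. The part of the antisense and intronic reads and of the marker levels in the results below was not tested.

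G2 and mitosis mRNAs were lower in shENO1 cells in 12 of the 42 genes and higher in 0. All 42 passed the filter of a mean of at least 1 FPKM. The 12 were CCNB2, CDK1, CDC25B, CDC25C, CKS2, TTK, UBE2C, PTTG1, CENPA, KIF20A, KIF2C and TOP2A, left at 43.4 to 71.6% of the wild-type mean. A gene was counted as lower or higher at an adjusted p under 0.05 in limma's moderated test on log2(FPKM + 1), with Benjamini-Hochberg adjustment over 12809 tested genes, and the same test gives every adjusted p below. Of the 42, 28.6% were lower and 0% higher, against 6.46% lower and 7.86% higher across all tested genes. The median log2 fold change was -0.33 over the 42 genes and -0.02 over all tested genes. At an unadjusted p under 0.05, 22 of the 42 were lower, against 15.4% of all tested genes, and 1 was higher. Across all 12809 tested genes 4060 were under 0.05 in either direction, 1972 of them lower. In 36 of the 42 the log2 fold change was below 0, as in 51.9% of all tested genes. All shENO1 libraries lay below all wild-type libraries in 24 of the 42, against 17.9% of all tested genes, and above them in 1, against 19.6%. With limma-voom on recovered reads 20 were lower and 0 higher, against 963 (7.52%) of all 12809 tested genes lower and 1371 higher.

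Summed over the 42 genes, the level was 1683, 1734 and 1963 FPKM in shENO1 replicates 1, 2 and 3, against 2339.6, 2510.4 and 2449 FPKM in wild-type replicates 1, 2 and 3. The means were 1793 ± 149.6 FPKM in shENO1 and 2433 ± 86.6 FPKM in wild-type cells (SD, n = 3 each), and the groups did not overlap. Within the groups the libraries were not alike. Among the shENO1 libraries, replicate 3 was the highest in 27 of the 42 genes and replicate 1 the lowest in 25. Among the wild-type libraries, replicate 1 was the lowest in 27. The number of lower genes depended on single libraries. It was 2 (CENPA and UBE2C) without shENO1 replicate 1, when 2.05% of all tested genes were lower. Without shENO1 replicate 2 it was 7, against 4.10% of all tested genes, and without shENO1 replicate 3 it was 13, against 5.69%. It was 1 (UBE2C) without wild-type replicate 1 and 1 (UBE2C) without wild-type replicate 2, against 1.04% and 1.31%, and 8 without wild-type replicate 3, against 6.055%. The median over the 42 stayed between -0.38 and -0.275 with any 1 library left out. Without replicate 3 of both groups, which lay farthest apart on principal component 2, it was 20, the 12 among them, against 15.8% of all genes then tested.

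**Figure D1:**
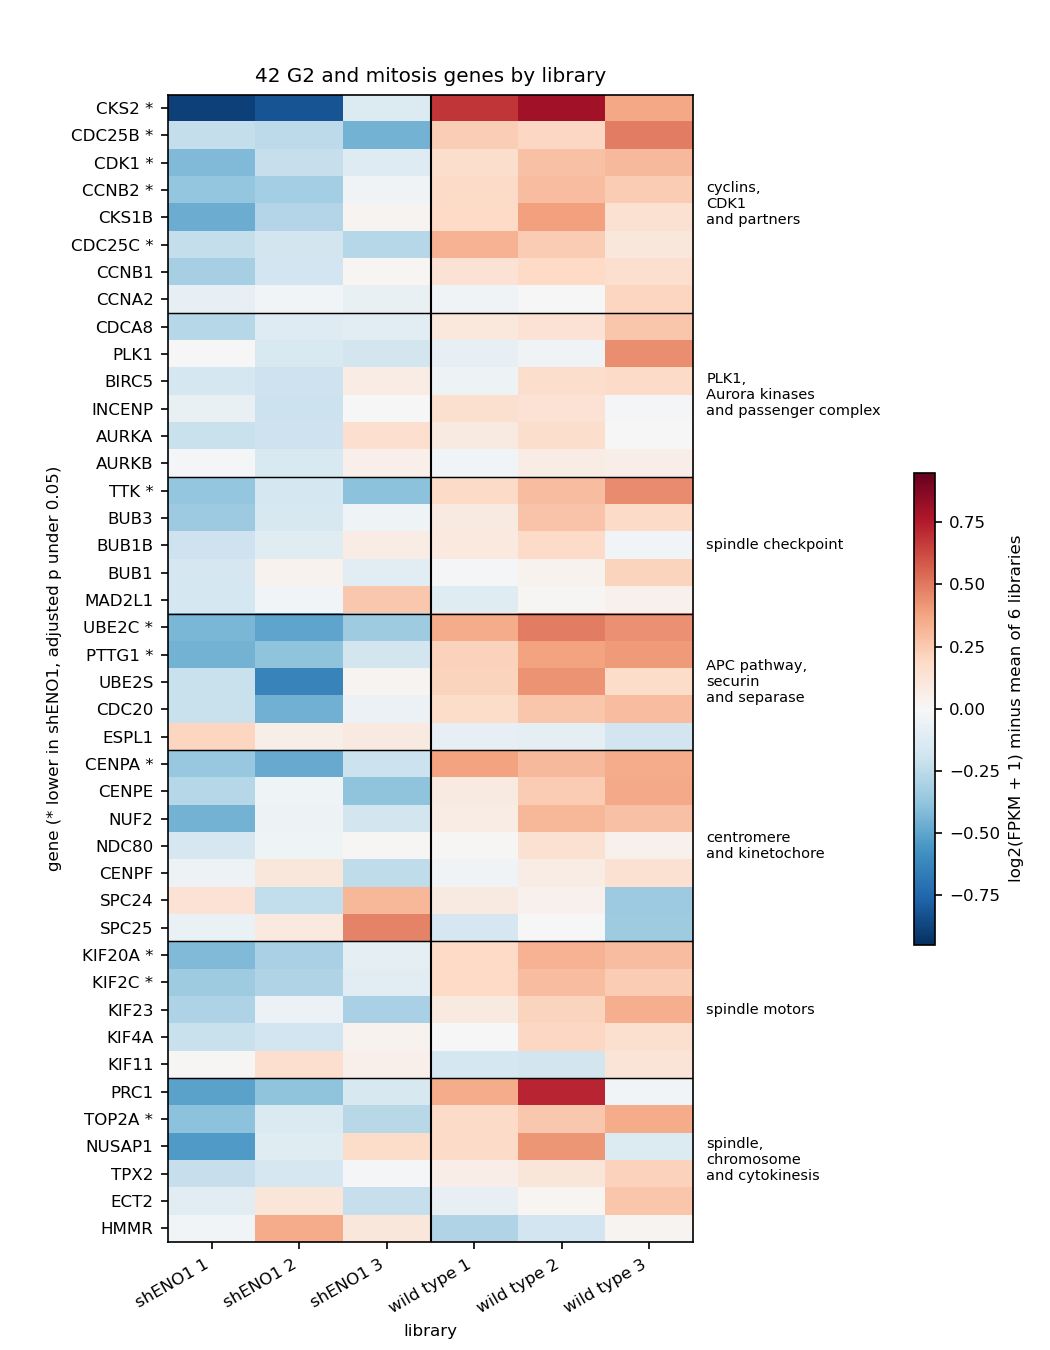
Each row is 1 of the 42 G2 and mitosis genes, grouped by role, and each column a library, shENO1 on the left and wild type on the right. The colour gives log2(FPKM + 1) minus the gene's mean over the 6 libraries. Blue dominates in shENO1 replicates 1 and 2 and is paler in shENO1 replicate 3, the highest shENO1 library in 27 of the 42 genes.

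The promoter windows of 5 of the lower genes and of SPC25, the gene with the highest log2 fold change of the 42, are shown so that genes which fell can be read beside one that did not: the 4 with the largest falls among those with a window (CKS2, CENPA, PTTG1 and CDC25B), the cyclin gene CCNB2, and SPC25. Each window runs from 250 bases before to 50 bases after the RefSeq start, 5′ to 3′ on the gene's strand, in GRCh38.p14. Capitals mark matches, on either strand, to the CHR letters TTTGAA and to the CCAAT box CCAAT. The CKS2 window lies at chr9:89310945-89311244, plus strand, that of CENPA at chr2:26785806-26786105, plus strand, that of PTTG1 at chr5:160421605-160421904, plus strand, that of CDC25B at chr20:3786701-3787000, plus strand, that of CCNB2 at chr15:59104896-59105195, plus strand and that of SPC25 at chr2:168890381-168890680, minus strand.
CKS2: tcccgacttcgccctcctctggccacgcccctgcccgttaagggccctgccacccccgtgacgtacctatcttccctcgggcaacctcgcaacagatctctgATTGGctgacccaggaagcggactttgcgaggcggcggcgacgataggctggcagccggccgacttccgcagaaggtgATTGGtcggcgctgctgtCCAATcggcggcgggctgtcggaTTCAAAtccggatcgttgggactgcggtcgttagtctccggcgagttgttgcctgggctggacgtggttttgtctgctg
CENPA: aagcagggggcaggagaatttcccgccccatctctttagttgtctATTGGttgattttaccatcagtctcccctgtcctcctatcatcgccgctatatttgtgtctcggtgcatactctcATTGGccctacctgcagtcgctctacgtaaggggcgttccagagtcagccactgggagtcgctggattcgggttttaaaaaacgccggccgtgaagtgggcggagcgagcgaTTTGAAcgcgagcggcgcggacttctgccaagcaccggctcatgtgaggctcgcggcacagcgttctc
PTTG1: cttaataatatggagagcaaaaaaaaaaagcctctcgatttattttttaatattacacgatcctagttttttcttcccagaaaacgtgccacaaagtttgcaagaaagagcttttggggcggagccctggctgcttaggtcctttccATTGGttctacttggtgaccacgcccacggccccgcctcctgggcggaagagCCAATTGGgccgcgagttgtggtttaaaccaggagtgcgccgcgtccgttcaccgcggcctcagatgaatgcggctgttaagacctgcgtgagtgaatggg
CDC25B: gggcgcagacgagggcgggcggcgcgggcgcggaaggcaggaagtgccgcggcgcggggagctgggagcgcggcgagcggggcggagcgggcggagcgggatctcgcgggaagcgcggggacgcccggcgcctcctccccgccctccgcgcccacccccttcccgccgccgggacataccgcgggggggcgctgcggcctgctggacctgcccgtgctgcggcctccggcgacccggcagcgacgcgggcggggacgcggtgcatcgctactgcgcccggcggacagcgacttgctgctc
CCNB2: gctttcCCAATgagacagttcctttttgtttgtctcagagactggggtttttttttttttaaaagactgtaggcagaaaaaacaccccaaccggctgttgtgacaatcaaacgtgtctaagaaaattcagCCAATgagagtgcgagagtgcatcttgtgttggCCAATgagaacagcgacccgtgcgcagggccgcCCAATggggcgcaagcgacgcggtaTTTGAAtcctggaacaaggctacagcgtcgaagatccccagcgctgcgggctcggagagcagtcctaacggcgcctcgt
SPC25: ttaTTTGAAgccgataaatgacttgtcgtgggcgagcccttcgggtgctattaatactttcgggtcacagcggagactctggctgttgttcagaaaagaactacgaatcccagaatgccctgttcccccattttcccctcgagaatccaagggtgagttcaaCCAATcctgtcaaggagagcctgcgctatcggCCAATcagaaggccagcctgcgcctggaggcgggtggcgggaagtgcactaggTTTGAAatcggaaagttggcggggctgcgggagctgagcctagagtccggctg

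In the CKS2 window a CHR match on the opposite strand began at -29, counted from the start as 0, and CCAAT matches at -148, -70 and -52. The CCNB2 window held a CHR match at the same distance, -29, behind CCAAT matches at -244, -120, -87 and -54. In the CENPA window the CHR match began at -18. The PTTG1 window held 3 CCAAT matches and no CHR match, its pair at -51 and -48 overlapping on opposite strands, and the CDC25B window held neither. The SPC25 window, of a gene at a log2 fold change of 0.33 that did not pass the test, held CHR matches at -247 and -3 and CCAAT matches at -88 and -56. A match is a run of letters, and no match says only that these letters are not in the window.

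Of the 42 genes, 36 had a RefSeq window; AURKA, BIRC5, BUB3, TPX2, TTK and UBE2C had no entry. CHR letters were found in 24 of the 36 (66.7%), against 15.4% of 27305 promoters of the same length and 9.47% of 8091 tested protein-coding genes. CCAAT was found in 29 (80.6%), against 35.7% of all promoters and 36.8% of tested protein-coding genes, and both in 21 (58.3%), against 6.08% and 4.05%. The CHR matches lay close to the start: 16 of 29 began between -40 and 0, in 15 genes, while 42 of 66 CCAAT matches began between -110 and -40, in 24 genes. Positions were not counted over other promoters, so whether this placing is particular to these genes was not tested. Among the 10 lower genes with a window, 5 held a CHR match (CCNB2, CDK1, CKS2, CENPA and TOP2A) and 7 a CCAAT match. Among the 26 others, 19 held a CHR match and 22 a CCAAT match. The windows of 4 genes held neither: CDC25B, CDC25C and KIF2C, which were lower, and CENPE, which did not pass. Only the first listed RefSeq start of each gene was used, which may not be the start in use in these cells. For CENPA, NUF2 and SPC25 it lies well inside the gene model. These counts therefore depend on the starts chosen.

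**Figure D2:**
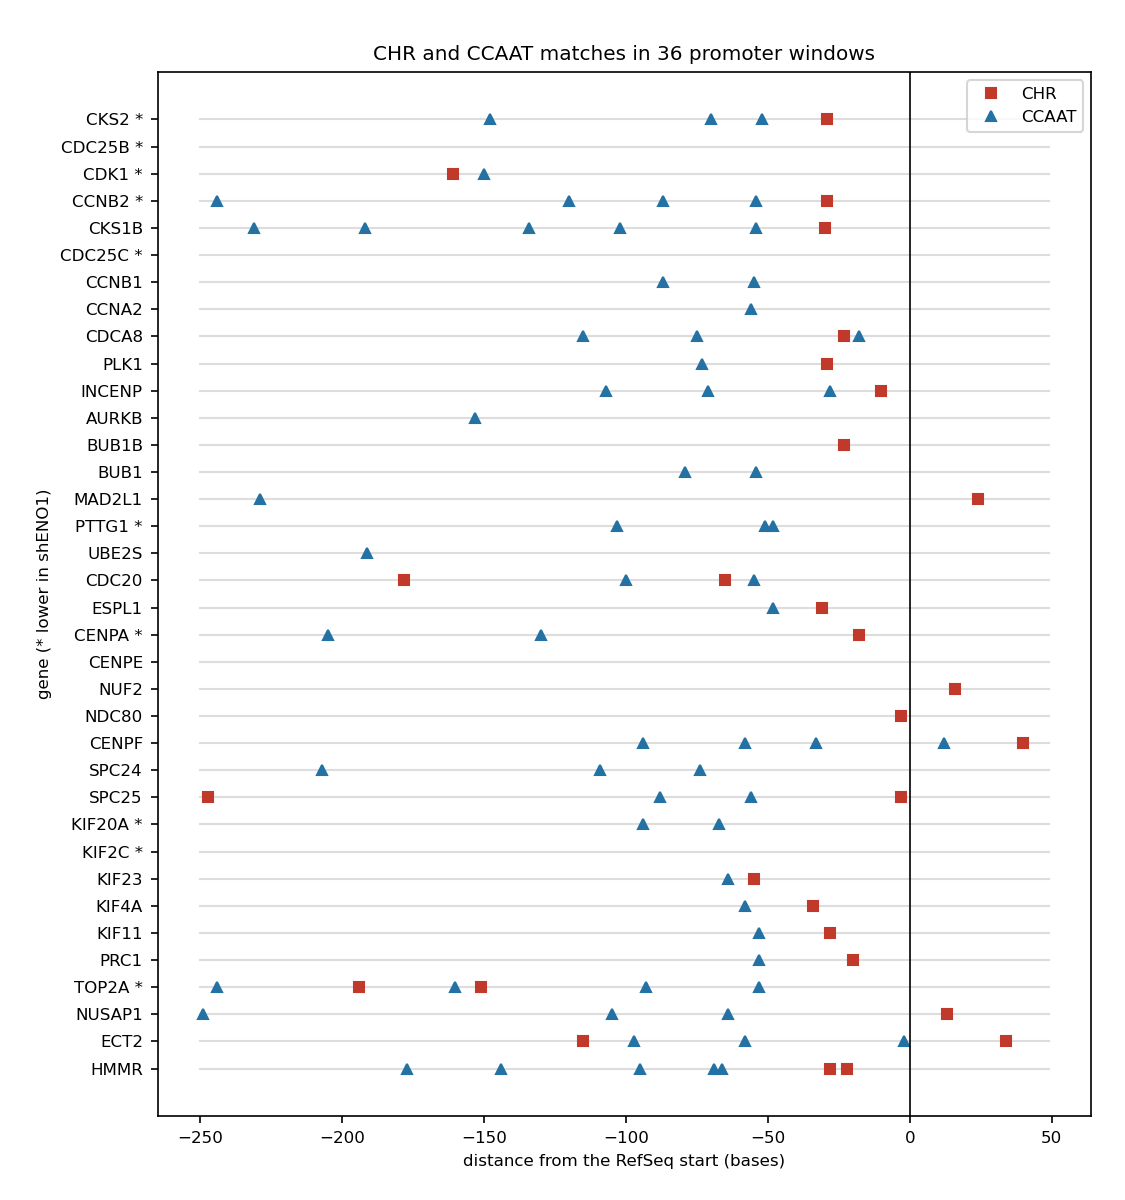
Squares mark CHR and triangles CCAAT matches by their distance in bases from the RefSeq start, 1 line for each of the 36 genes with a window; asterisks mark the genes lower in shENO1 cells. Squares gather just before the start, 16 of 29 between -40 and 0, and triangles gather upstream of them.

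Among the cyclins, CDK1 and their partners, 5 of 8 fell (62.5%), 0 rose and 3 did not pass, with a group median of -0.48. Of the 42 genes 28.6% fell, and of all tested genes 6.46% fell and 7.86% rose. The role groups are small, and differences between them were not tested. CKS2, a small CDK-binding subunit, had the largest change of all 42 genes. It was at 95.6, 100.2 and 162 FPKM in shENO1 replicates 1, 2 and 3, against 285, 311 and 229.5 FPKM in wild-type replicates 1, 2 and 3. Its highest shENO1 library, replicate 3, stayed below its lowest wild-type library, also replicate 3. The means were 119 ± 37.2 and 275 ± 41.5 FPKM, a log2 fold change of -1.23 (SE 0.23, adjusted p = 0.0211). The CKS2 gene model (ENSG00000123975, chromosome 9, 89311198 to 89316703, plus strand, GRCh38) is 613 bases long, the shortest of the 42. MIR3153, a microRNA locus inside it, was listed at 17.5 ± 4.96 FPKM in shENO1 and 198 ± 9.53 FPKM in wild-type cells, and reads of the pair cannot be told apart with certainty.

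CDK1, the mitotic kinase (ENSG00000170312, chromosome 10, 60778331 to 60794852, plus strand), was at 53.0, 61.0 and 65.1 FPKM in shENO1 libraries and at 80.1, 86.2 and 88.4 FPKM in wild-type libraries. All shENO1 values lay below all wild-type values, and the log2 fold change was -0.50 (SE 0.11, adjusted p = 0.0324). CCNB2, encoding cyclin B2 (ENSG00000157456, chromosome 15, 59105078 to 59125045, plus strand), was at 43.0, 44.5 and 54.7 FPKM in shENO1 libraries, against 63.6, 68.7 and 66.4 FPKM in wild-type libraries. Its log2 fold change was -0.48 (SE 0.12, adjusted p = 0.0420), the closest to the threshold among the 12. CCNB1, encoding cyclin B1, was at 55.1, 60.8 and 69.9 FPKM in shENO1 libraries, against 76.0, 78.7 and 77.0 FPKM in wild-type libraries; the groups did not overlap, but the gene did not pass (log2 fold change -0.32, adjusted p = 0.107). CCNA2, encoding cyclin A2, was at 66.1 ± 1.19 and 71.8 ± 6.49 FPKM with overlapping groups (adjusted p = 0.481).

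Of the CDC25 phosphatases, which activate CDK1, CDC25B (ENSG00000101224, chromosome 20, 3786772 to 3806121, plus strand) was at 50.5, 49.9 and 43.3 FPKM in shENO1 libraries and at 69.9, 68.3 and 83.7 FPKM in wild-type libraries. Here replicate 3 was the lowest shENO1 library, unlike in most of the 42 genes, and the log2 fold change was -0.61 (SE 0.12, adjusted p = 0.0234). CDC25C (ENSG00000158402, chromosome 5, 138285265 to 138338355, minus strand) was low throughout, at 2.71, 2.86 and 2.61 FPKM in shENO1 libraries, against 4.47, 4.14 and 3.70 FPKM in wild-type libraries (log2 fold change -0.45, SE 0.10, adjusted p = 0.0322). It rested on 141 to 225 reads per library, and it overlaps FAM53C on the other strand. CDC25A, the third phosphatase of the family, stood on the other side at 22.1, 19.1 and 24.7 FPKM in shENO1 libraries, against 17.5, 18.4 and 14.3 FPKM in wild-type libraries, and did not pass (log2 fold change 0.37, SE 0.14, adjusted p = 0.115). CKS1B, the paralogue of CKS2, was at 60.0 ± 10.8 and 83.5 ± 7.95 FPKM and did not pass (adjusted p = 0.0824); its processed copy CKS1BP3 was listed at a mean of 12.1 FPKM, so that some reads may be split between them.

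With each library left out in turn, CKS2 and CDC25B passed in 2 of 6 fits and CDK1, CCNB2 and CDC25C in 1 of 6. None of these 5 genes passed without shENO1 replicate 1, shENO1 replicate 2, wild-type replicate 1 or wild-type replicate 2. Their log2 fold changes stayed negative, from -1.47 to -1.09 for CKS2, -0.67 to -0.52 for CDC25B, -0.57 to -0.42 for CDK1, -0.59 to -0.42 for CCNB2 and -0.51 to -0.40 for CDC25C, with adjusted p up to 0.0847, 0.0830, 0.130, 0.156 and 0.130 in the same order. CDC25B was also lost after quantile normalisation (adjusted p = 0.0642) and CDC25C with scaling on nuclear genes (adjusted p = 0.0539). With 5 in place of 1 added to FPKM, the log2 fold change of CDC25C, a low gene, was -0.24 and still passed. CDC25C was also lost without shENO1 replicate 3, and CDK1 and CCNB2 without wild-type replicate 3. CCNB1 and CKS1B passed without shENO1 replicate 3 (adjusted p = 0.0472 and 0.0368).

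**Figure D3:**
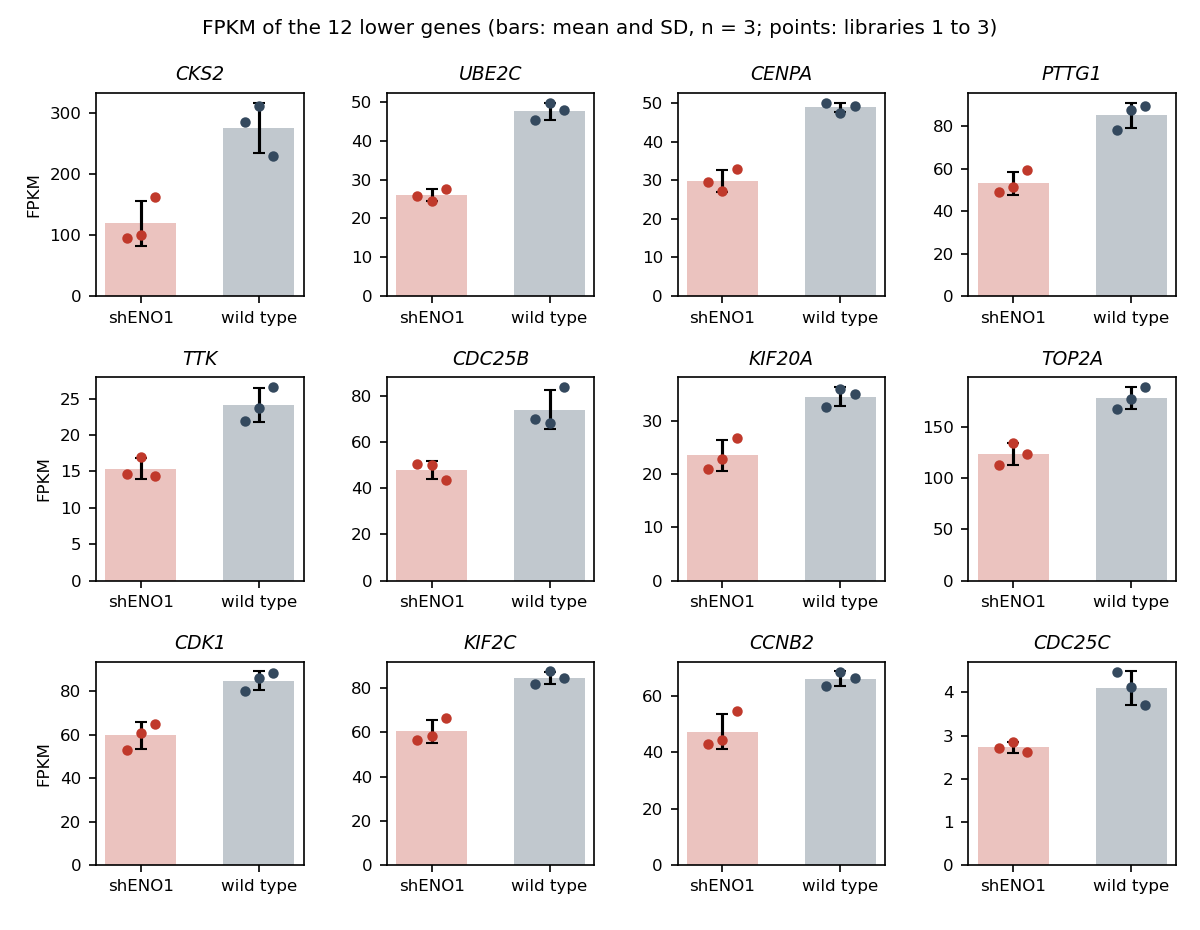
FPKM of the 12 lower genes, shENO1 on the left and wild type on the right of each panel. Bars give the mean and SD of 3 libraries and points the libraries. In every panel the 3 shENO1 points lie below the 3 wild-type points, and the y axes start at 0 and differ between genes.

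In the anaphase-promoting pathway 2 of 5 genes fell (40%, against 6.46% of all tested genes) and 0 rose (against 7.86%), with a median of -0.54. UBE2C, the ubiquitin-conjugating enzyme that starts chains on APC/C substrates (ENSG00000175063, chromosome 20, 45812576 to 45816957, plus strand), was at 25.7, 24.5 and 27.6 FPKM in shENO1 libraries, against 45.3, 49.7 and 47.8 FPKM in wild-type libraries. The libraries of each group lay close together and far from those of the other. The means were 26.0 ± 1.57 and 47.6 ± 2.21 FPKM, with a log2 fold change of -0.85 (SE 0.09) and the lowest adjusted p of the 42 genes, 0.00583. UBE2C passed with any 1 library left out, at adjusted p of 0.0148 to 0.0373. PTTG1, encoding securin, the inhibitor of separase (ENSG00000164611, chromosome 5, 160421822 to 160428744, plus strand), was at 48.9, 51.1 and 59.3 FPKM in shENO1 libraries and at 78.3, 87.6 and 89.3 FPKM in wild-type libraries. Its groups did not overlap (log2 fold change -0.67, SE 0.11, adjusted p = 0.0158), and it was lost without shENO1 replicate 1, wild-type replicate 1 or wild-type replicate 2, with log2 fold changes of -0.75 to -0.62 and adjusted p up to 0.0780.

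UBE2S, which extends the ubiquitin chains, was at 115, 85.3 and 136 FPKM in shENO1 libraries, against 154, 179 and 150.2 FPKM in wild-type libraries. The groups did not overlap, but the shENO1 libraries spread widely and the gene did not pass (log2 fold change -0.54, SE 0.19, adjusted p = 0.0991). It overlaps the more abundant RPL28 on the other strand and has a processed copy, UBE2SP1, at a mean of 5.86 FPKM. CDC20, the APC/C activator that the spindle checkpoint restrains, was at 107, 90.3 and 119.6 FPKM in shENO1 libraries, against 140, 149 and 153 FPKM in wild-type libraries, just outside the threshold (adjusted p = 0.0545), and it passed without shENO1 replicate 3 (adjusted p = 0.0375). ESPL1, encoding separase, the protease that opens cohesin rings, stood on the other side. It was at 15.1, 13.6 and 13.9 FPKM in shENO1 libraries, against 12.3, 12.3 and 11.4 FPKM in wild-type libraries. ESPL1 was the 1 gene of the 42 with all shENO1 libraries above all wild-type libraries, and it did not pass (log2 fold change 0.23, SE 0.09, adjusted p = 0.122).

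Of the 5 spindle checkpoint genes 1 fell (20%, against 6.46% of all tested genes) and 0 rose (against 7.86%), with a median of -0.16. These are too few genes to set the group apart from the other roles. TTK, the kinase MPS1 that starts checkpoint signalling at kinetochores (ENSG00000112742, chromosome 6, 80003887 to 80042527, plus strand), was at 14.7, 17.1 and 14.4 FPKM in shENO1 libraries and at 22.0, 23.7 and 26.6 FPKM in wild-type libraries. The groups were well separated, with a log2 fold change of -0.61 (SE 0.11, adjusted p = 0.0183). TTK was lost without shENO1 replicate 1, wild-type replicate 1 or wild-type replicate 2 (log2 fold changes of -0.69 to -0.54, adjusted p up to 0.0773). BUB1, a checkpoint kinase and the most abundant of the group, was at 37.2, 42.6 and 38.7 FPKM in shENO1 libraries, against 41.1, 42.7 and 48.2 FPKM in wild-type libraries, with overlapping groups (adjusted p = 0.366). BUB3, which brings the BUB proteins to kinetochores, did not overlap between groups (22.6 ± 2.45 and 29.3 ± 1.97 FPKM) and did not pass (adjusted p = 0.0743). BUB1B, encoding the checkpoint protein BUBR1, was at 32.4 ± 3.22 and 36.4 ± 2.66 FPKM and MAD2L1, encoding MAD2, which binds CDC20, at 22.1 ± 3.49 and 21.3 ± 1.25 FPKM (adjusted p = 0.347 and 0.850).

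None of the 6 genes of PLK1, the Aurora kinases and the chromosomal passenger complex passed in either direction by limma on all libraries as deposited. Of all tested genes 6.46% fell and 7.86% rose, so 0 of 6 cannot set this group apart. At an unadjusted p under 0.05 the count was 1 (CDCA8), against 15.4% of all tested genes lower, and by limma-voom 0. Other settings gave falls. CDCA8 passed with equal FPKM totals (adjusted p = 0.0420) and AURKA without replicate 3 of both groups (adjusted p = 0.0390). The group median was -0.19. AURKB, the kinase of the passenger complex, was at 55.6, 50.8 and 58.2 FPKM in shENO1 libraries, against 55.2, 59.0 and 58.8 FPKM in wild-type libraries. These values overlapped, and the log2 fold change of -0.07 was the smallest below 0 of the 42 (adjusted p = 0.657). CDCA8, encoding borealin of the same complex, was at 41.6, 46.2 and 47.0 FPKM in shENO1 libraries, against 54.3, 55.6 and 60.8 FPKM in wild-type libraries, without overlap (log2 fold change -0.33, SE 0.10, adjusted p = 0.0672). Its other subunits INCENP, the scaffold, and BIRC5, survivin, were at 34.0 ± 2.53 and 38.8 ± 2.57 FPKM and at 14.1 ± 1.57 and 16.3 ± 1.48 FPKM, with overlapping groups. AURKA, the centrosomal Aurora kinase, was at 47.1 ± 7.29 and 52.6 ± 3.09 FPKM. PLK1, which acts from mitotic entry to cytokinesis, was at 45.0, 40.7 and 39.9 FPKM in shENO1 libraries and at 42.7, 44.0 and 61.8 FPKM in wild-type libraries, where replicate 3 stood alone.

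In the centromere and kinetochore group 1 of 7 genes fell (14.3%, against 6.46% of all tested genes) and 0 rose (against 7.86%), with a median of -0.13. CENPA, the histone H3 variant that marks centromeres (ENSG00000115163, chromosome 2, 26764289 to 26801067, plus strand), was at 29.5, 27.1 and 32.9 FPKM in shENO1 libraries and at 49.9, 47.5 and 49.1 FPKM in wild-type libraries. The groups were far apart (log2 fold change -0.70, SE 0.10, adjusted p = 0.0105). CENPA was lost without wild-type replicate 1 or wild-type replicate 2, with log2 fold changes of -0.77 to -0.63 and adjusted p up to 0.0584. It overlaps SLC35F6 on the same strand, which rose to 10.4 ± 1.32 FPKM in shENO1 cells, against 3.86 ± 1.12 FPKM in wild-type cells (adjusted p = 0.0113). CENPE, a kinesin that moves chromosomes at kinetochores, and NUF2 of the NDC80 complex did not overlap between groups and did not pass. CENPE was at 10.5, 12.4 and 9.60 FPKM in shENO1 libraries, against 13.7, 15.3 and 16.7 FPKM in wild-type libraries (adjusted p = 0.0533, and 0.0456 without shENO1 replicate 2). NUF2 was at 20.7, 27.6 and 25.2 FPKM in shENO1 libraries, against 30.1, 35.8 and 35.0 FPKM in wild-type libraries (adjusted p = 0.0705).

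The 4 subunits of the NDC80 complex, which ties kinetochores to microtubules, did not stand alike. Beside NUF2, at a log2 fold change of -0.45, NDC80 stood at -0.13, SPC24 at 0.15 and SPC25 at 0.33. SPC25 was at 17.3, 19.5 and 25.6 FPKM in shENO1 libraries, against 16.2, 18.2 and 14.2 FPKM in wild-type libraries, with overlapping groups and shENO1 replicate 3 highest (adjusted p = 0.213). SPC24 was at 11.9 ± 2.40 and 10.6 ± 1.83 FPKM, with overlapping groups. The difference between the subunits was not tested. CENPF, a large protein of the outer kinetochore and the most abundant of the group by FPKM after CENPA in wild-type cells, was at 42.01, 46.8 and 36.7 FPKM in shENO1 libraries, against 42.5, 45.7 and 48.3 FPKM in wild-type libraries (adjusted p = 0.523).

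Of 5 spindle motors 2 fell (40%, against 6.46% of all tested genes) and 0 rose (against 7.86%), with a median of -0.43. KIF20A, the kinesin MKLP2 that moves the passenger complex to the central spindle (ENSG00000112984, chromosome 5, 138178719 to 138187715, plus strand), was at 21.0, 22.8 and 26.8 FPKM in shENO1 libraries and at 32.6, 36.1 and 35.2 FPKM in wild-type libraries (log2 fold change -0.54, SE 0.11, adjusted p = 0.0274). KIF2C, the microtubule-depolymerising kinesin MCAK (ENSG00000142945, chromosome 1, 44739818 to 44767767, plus strand), was at 56.4, 58.3 and 66.5 FPKM in shENO1 libraries and at 81.7, 87.6 and 84.5 FPKM in wild-type libraries (log2 fold change -0.48, SE 0.10, adjusted p = 0.0292). In both genes shENO1 replicate 3 came nearest to the wild-type libraries. Both passed in 1 of 6 fits with a library left out, without shENO1 replicate 3, and were lost without any other library, at log2 fold changes of -0.64 to -0.47 and -0.55 to -0.44 and adjusted p up to 0.113 and 0.130. KIF20A overlaps CDC23 and BRD8, and KIF2C an antisense locus, on the other strand. KIF23, the central spindle kinesin MKLP1, stood just outside the threshold at 19.0 ± 2.01 and 26.0 ± 2.43 FPKM (adjusted p = 0.0514, and 0.0490 without shENO1 replicate 2). KIF4A, a chromosome-bound kinesin, was at 15.2 ± 1.52 and 18.0 ± 1.30 FPKM (adjusted p = 0.181). KIF11, the kinesin Eg5 that separates spindle poles, was at 25.6, 28.4 and 26.2 FPKM in shENO1 libraries, against 22.4, 22.3 and 27.6 FPKM in wild-type libraries, with overlapping groups and a log2 fold change of 0.15 (adjusted p = 0.408).

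Of the 6 remaining spindle, chromosome and cytokinesis genes 1 fell (16.7%, against 6.46% of all tested genes) and 0 rose (against 7.86%). Their median was -0.29. TOP2A, the topoisomerase that untangles sister chromatids (ENSG00000131747, chromosome 17, 40388516 to 40417950, minus strand), was at 113, 135 and 124 FPKM in shENO1 libraries and at 168, 178 and 189.5 FPKM in wild-type libraries. It carried the most reads of the 42 genes, 11338 to 17866 per library, and its log2 fold change was -0.52 (SE 0.11, adjusted p = 0.0314). TOP2A passed in 1 of 6 fits, without shENO1 replicate 2 (adjusted p = 0.0462), and was lost without any other library (log2 fold changes of -0.59 to -0.46, adjusted p up to 0.126). It was also lost after quantile normalisation, at a log2 fold change of -0.34 (adjusted p = 0.177). TPX2, the spindle assembly factor that activates AURKA, was at 175, 183 and 202 FPKM in shENO1 libraries, against 213, 221 and 237 FPKM in wild-type libraries, without overlap (log2 fold change -0.26, adjusted p = 0.173). PRC1, the microtubule bundler of the central spindle, was at 0.803, 0.964 and 1.31 FPKM in shENO1 libraries, against 2.27, 3.23 and 1.52 FPKM in wild-type libraries (log2 fold change -0.70, SE 0.22, adjusted p = 0.0796, and 0.0394 without wild-type replicate 3). It rested on 69 to 279 reads per library, and its gene model overlaps the protein-coding locus AC068831.7 on the same strand, at 6.33 ± 0.424 and 10.9 ± 1.13 FPKM. NUSAP1, a microtubule-binding protein, was at 13.5 ± 3.47 and 16.9 ± 3.36 FPKM and ECT2, which starts cytokinesis by activating RHOA, at 9.71 ± 1.30 and 10.8 ± 1.48 FPKM. HMMR, a spindle-associated hyaluronan receptor, was at 15.3, 20.1 and 16.8 FPKM in shENO1 libraries, against 12.6, 13.6 and 15.8 FPKM in wild-type libraries (log2 fold change 0.29, adjusted p = 0.188).

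**Figure D4:**
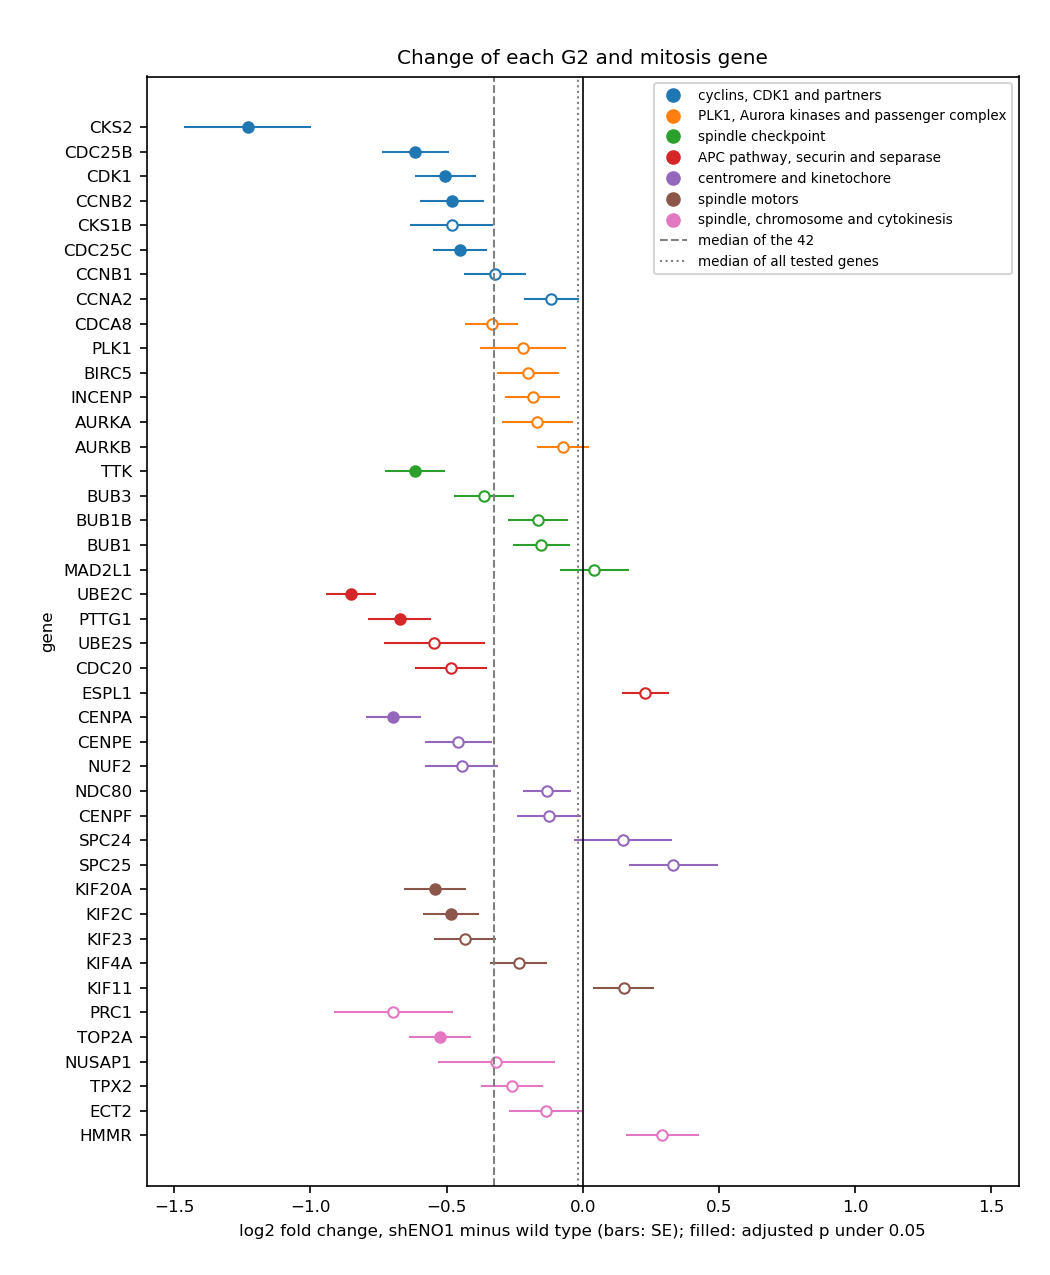
Points give the log2 fold change of each of the 42 genes, shENO1 minus wild type on log2(FPKM + 1), with bars of 1 SE, coloured by role; filled points passed the test. Most points lie left of 0, around the median of -0.33, and 6 genes (MAD2L1, ESPL1, SPC24, SPC25, KIF11 and HMMR) lie to its right without passing.

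Ordered by wild-type level per length, CKS2 (275 ± 41.5 FPKM), TPX2 (223 ± 12.4 FPKM), TOP2A (178 ± 10.7 FPKM), UBE2S (161 ± 15.7 FPKM) and CDC20 (147 ± 6.48 FPKM) came first, and CDC25C (4.10 ± 0.386 FPKM) and PRC1 (2.34 ± 0.859 FPKM) last. PRC1 overlaps the more abundant AC068831.7 on the same strand, so reads may be split between them and its place is uncertain. Of 41 neighbouring pairs in this order, 9 had wild-type libraries that did not overlap, so most neighbours did not differ beyond their spread. In shENO1 cells TPX2 stood first (187 ± 13.9 FPKM) with TOP2A and then CKS2 behind it.

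Other genes of the same processes were listed by function, 132 genes in 7 lists, of which 127 were tested. Of these 11 fell (8.66%) and 10 rose (7.87%), near the 6.46% and 7.86% of all tested genes, with a median log2 fold change of -0.04. The list of other spindle, centrosome and cytokinesis genes had 4 of 22 lower and 0 higher, with a median of -0.29. SPAG5, the spindle protein astrin, was at 30.2, 30.3 and 31.7 FPKM in shENO1 libraries, against 46.9, 44.3 and 39.7 FPKM in wild-type libraries (log2 fold change -0.49, adjusted p = 0.0234). TROAP, FAM83D and DLGAP5 also fell, at log2 fold changes of -0.47, -0.44 and -0.40. MKI67, the gene of the proliferation marker Ki-67, was on the other side, at 54.9 ± 3.84 and 41.9 ± 4.49 FPKM, and did not pass (adjusted p = 0.0663).

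Among other mitotic kinases and G2 regulators 2 of 15 fell and 2 rose (13.3% each, against 6.46% and 7.86% of all tested genes). NEK2, a centrosomal kinase, was at 19.2, 20.6 and 25.02 FPKM in shENO1 libraries, against 48.9, 57.1 and 50.5 FPKM in wild-type libraries. Its log2 fold change of -1.24 (SE 0.13, adjusted p = 0.00561) was about as far from 0 as that of CKS2, with libraries that lay closer together. BORA, which helps AURKA activate PLK1, fell to 14.1 ± 1.94 FPKM in shENO1 cells, against 24.4 ± 1.36 FPKM in wild-type cells (adjusted p = 0.0125). PKMYT1, a kinase that inhibits CDK1, and VRK1, a histone kinase, rose (15.5 ± 1.98 and 10.9 ± 0.807 FPKM; 22.7 ± 3.04 and 15.6 ± 0.846 FPKM).

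APC/C subunits and regulators moved both ways: CDC16, a subunit, and FBXO5, the inhibitor EMI1, fell and ANAPC7, a subunit, rose, of 19 tested, with a median of 0.07. For this and the next lists, 6.46% of all tested genes fell and 7.86% rose. In the list of other centromere and kinetochore genes 2 of 29 fell and 3 rose, with a median of -0.003. MIS12, an outer kinetochore protein, rose to 7.28 ± 0.156 FPKM in shENO1 cells, against 4.01 ± 0.467 FPKM in wild-type cells (log2 fold change 0.73, adjusted p = 0.00887), SKA3 and CENPM rose by 0.60 and 0.45 on the log2 scale, and CENPC, which binds CENPA nucleosomes, fell (-0.54). Of 8 other mitotic kinesins 1 fell, KIF18A (log2 fold change -0.62), and of 19 condensin and cohesin genes 1 rose, ESCO2, a cohesin acetyltransferase (0.65).

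Of 15 tested regulators of G2 and mitosis transcription 3 rose (20%) and 0 fell, with a median of 0.08. Of all tested genes 7.86% rose and 6.46% fell, and whether this short list differs from them was not tested. All shENO1 libraries lay above all wild-type libraries in 6 of the 15, against 19.6% of all tested genes. They lay below in 4 (E2F5, RBL2, LIN52 and NFYA), against 17.9%. These 4 did not pass, at log2 fold changes of -0.64, -0.29, -0.24 and -0.18 (adjusted p of 0.0580 for E2F5). FOXM1, a transcription factor of this wave, was at 22.5, 22.7 and 19.4 FPKM in shENO1 libraries, against 14.8, 12.8 and 16.7 FPKM in wild-type libraries (log2 fold change 0.52, SE 0.12, adjusted p = 0.0371). MYBL2, encoding B-MYB, was at 159, 138 and 159 FPKM in shENO1 libraries, against 104, 110.1 and 116 FPKM in wild-type libraries (log2 fold change 0.46, SE 0.11, adjusted p = 0.0387). TFDP1, the partner of E2F factors, was at 147 ± 2.74 and 106 ± 9.47 FPKM (adjusted p = 0.0363). Whether these rises bear on the 42 genes was not tested.

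The list of DNA replication genes, which are transcribed earlier in the cell cycle, was set beside the 42. Of the 42 genes 0 rose and 12 fell (28.6%), with a median log2 fold change of -0.33. Of 34 replication genes 13 rose (38.2%) and 0 fell, with a median of 0.36. Across all tested genes 7.86% rose and 6.46% fell. UNG, POLA1, MCM2 and GINS3 had the largest log2 fold changes there, at 0.94, 0.79, 0.70 and 0.61. The median deviation of the 42 genes from their mean over all libraries was -0.22, -0.16 and -0.06 in shENO1 replicates 1, 2 and 3, against 0.09, 0.20 and 0.19 in wild-type replicates 1, 2 and 3. For the replication genes it was 0.16, 0.15 and 0.28 in shENO1 replicates 1, 2 and 3, against -0.16, -0.19 and -0.22 in wild-type replicates 1, 2 and 3. So no shENO1 library lay among the wild-type libraries in either list, and shENO1 replicate 3 was the highest of its group in both. CHR letters were found in 24 of 36 G2 and mitosis promoters, against 1 of 31 replication promoters (3.23%), and CCAAT in 29 of 36, against 19 of 31 (61.3%). The difference between the lists was not tested.

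**Figure D5:**
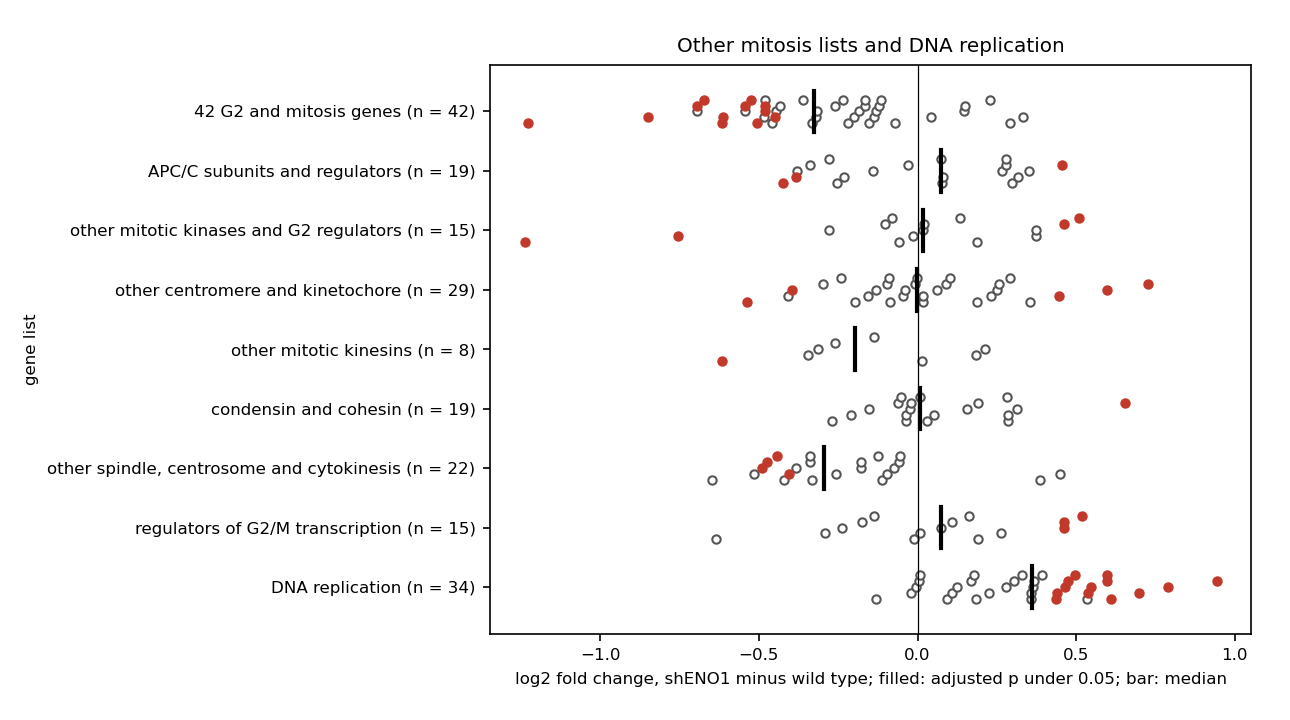
Each point is a tested gene at its log2 fold change, shENO1 minus wild type on log2(FPKM + 1), in rows by list; filled points passed the test in either direction and bars mark list medians. The 42 G2 and mitosis genes (median -0.33) lie to the left and the 34 DNA replication genes (median 0.36) to the right, with most other mitosis lists around 0.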

How the data were processed

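RNA sequencing of total RNA was done on 3 shENO1 and 3 wild-type libraries of U937 cells, with Illumina's TruSeq RNA library chemistry according to the labels' protocols. The deposited table gives FPKM per gene and library as normalised by the authors; the submitters' processing notes name Cuffnorm, STAR, Cufflinks and hg38 (GRCh38). Their versions and settings, the strand rule and the treatment of multi-mapped reads are not given in the sources used here, so reads of overlapping or near-identical genes may be split. The FPKM values multiplied by gene length were whole multiples of 1 step per library for 100% of values above 0 (tolerance 0.001), which gave recovered reads.

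The test, limma 3.58.1 in R 4.3.3, used log2(FPKM + 1) of every gene whose mean reached 1 FPKM (group model, empirical Bayes with a mean-variance trend, Benjamini-Hochberg adjustment over all tested genes). Because 1 is added, log2 fold changes understate the change of low genes. Errors after ± are SD over 3 libraries, shENO1 before wild type; SE belongs to the log2 fold change. The exact two-sided permutation test of 1 gene cannot go below p = 0.1 here, the value it gave for ENO1. The 42 genes, the other lists and the alternatives were chosen with earlier results of these data known; no test was made over a list. Per-library values are given for each gene that passed and for the most abundant and the most changed gene of each role, with other genes by mean or range; of the other lists, up to 4 passing genes are named. MKI67, CDC25A, SLC35F6, MIR3153 and further overlapping genes were added after their values were seen. So were the named markers and transcription regulators that did not pass, and per-library values of further members. TMM factors for limma-voom were computed from their published formula. The test was tried on simulated reads with known changes, with an outcome that is not reported here. Those reads had no length trends or differences between replicates like those of the real libraries, so the trial cannot speak to these. Promoter windows come from RefSeq, the first listed start of a gene, and figures from matplotlib 3.10.9 in Python 3.11.15.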

Additional observations from a re-analysis of the deposited data

How the results depend on the processing

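Over the settings tried, the median of the 42 genes stayed below 0, between -0.38 and -0.27, and 0 of the 42 rose in any. The shares in brackets are those of all tested genes lower in the same setting, 6.46% as reported. The lower genes numbered 12 with pseudocounts of 0.1 and 5 (6.21% and 6.32%), without the mean-variance trend (6.29%) and with scaling on nuclear genes (5.15%). They numbered 13 at a mean of at least 5 FPKM, where 40 were tested (7.57%), 17 with equal FPKM totals (6.66%), 18 with the length trend removed (7.26%) and 10 after quantile normalisation (6.16%). They numbered 20 with limma-voom on recovered reads (7.52%), 4 with no filter (1.21%, 381 genes lower and 445 higher in all) and 1 at an adjusted p under 0.01 (0.984%, 126 lower and 177 higher in all). Without replicate 3 of both groups they numbered 20, with 2041 genes lower and 1637 higher in all. That pair was left out because it lay apart, so a smaller spread is built into it. With 1 library left out, 1 to 13 of the 42 were lower, and in all 132 to 775 genes were lower and 148 to 917 higher. Calls on all genes split into 54.9% higher, but into 65.6% with scaling on nuclear genes and 44.5% without replicate 3 of both groups. With the replicate number as a block 0 of the 42 were lower, and 1 gene was lower and 0 higher in all. Replicate numbers were not taken as pairing: same-numbered libraries had deviations correlated at -0.08, -0.33 and -0.46. With no filter CENPA, PTTG1, TTK and UBE2C passed, and the other 8 of the 12 were at adjusted p of 0.0557 to 0.0872. UBE2C passed in every setting except that block. Of genes that did not pass, TPX2 was at 0.0278 after quantile normalisation. CENPF was at 0.0091, ECT2 at 0.0395, MAD2L1 at -0.0437 and SPC24 at -0.11 without replicate 3 of both groups. With 1 library left out MAD2L1 ran from -0.0737 (without shENO1 replicate 3) to 0.1356 (without shENO1 replicate 1), and was at -0.0037 without wild-type replicate 1. The cause of these changes was not tested. The depth behind the 42 genes ran from 69 to 17866 reads per gene and library.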
